A study of Homo sapiens with 6 samples.

Results

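The 36 genes described here encode the enzymes of cholesterol and fatty acid synthesis and the proteins that sense, take up, move, store and export sterols. They were given as a list of gene symbols and matched through GENCODE release 29 to the Ensembl gene IDs of the expression tables, where all 36 were found among 58336 IDs. RNA had been sequenced from clones of KGN, a human granulosa cell tumour line heterozygous for the FOXL2 C134W change, and FOXL2 is a forkhead factor of the ovary. The FOXL2 WT/C134W group, which kept the change, holds clone 3.11 (replicate 1), clone 44b (replicate 2) and a library titled 3.11-44b (replicate 3). The FOXL2 WT/WT group, in which CRISPR/Cas9 had reverted the change, holds clone 44a (replicate 1), clone 4.72 (replicate 2) and a library titled 4.72-44a (replicate 3). All cells shared a serum-containing medium, and RNA was taken 30 h after a transfection whose content the labels leave unsaid.

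The libraries 3.11-44b and 4.72-44a carry the names of both clones of their genotype and may be mixes of them, so genotypes were compared over the 4 single clones, 3.11 and 44b against 44a and 4.72. Each genotype is therefore represented by 2 clones of 1 tumour line. Nothing in the labels says whether libraries came from separate cultures, so p-values measure the spread between these clones. Editing is recorded for WT/WT alone, and its effects cannot be told apart from those of the genotype. A second comparison set clones 44a and 44b, whose titles share a stem, against clones 4.72 and 3.11, with 1 clone of each genotype on either side.

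Library totals ran from 35332721 to 46613071 rounded expected counts, at which 3 counts equal 0.0644 to 0.0849 CPM (counts scaled by TMM to a common library size). FOXL2 itself stood at 9.26 and 10.1 CPM in 3.11 and 44b, against 7.38 and 4.87 CPM in 44a and 4.72, and these gene counts do not separate its alleles. Of 15 granulosa cell markers, 8 reached 1 TPM (a transcript level scaled by gene length) in every library, NR5A1, AMH and FST among them. The other 7, FSHR, AMHR2, CYP19A1, INHA, NR5A2, WT1 and GATA4, were below 1 TPM in all 6 libraries. The 4 adipocyte and 3 hepatocyte markers were below 1 TPM throughout. Of 7 fibroblast markers, 6 reached 1 TPM in every library. The collagen genes COL1A1 and COL1A2 made up most of their sum, which was 7996 and 6862 TPM in 3.11 and 44b, against 14157 and 12528 TPM in 44a and 4.72. COL1A1, COL1A2 and PDGFRB were lower in both single WT/C134W clones than in both single WT/WT clones, while PDGFRA, DCN, LUM and THY1 overlapped. Summed CPM of 10 mitotic genes was 2020 in 3.11 and 1182 in 44b, against 1004 in 44a and 533 in 4.72.

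Cholesterol is built from acetyl-CoA through mevalonate, isoprenoid diphosphates, squalene and lanosterol, and fatty acids are built from the same precursor. Transcription of both pathways is driven by the sterol regulatory element-binding proteins (SREBPs), encoded by SREBF1 and SREBF2. While sterols are plentiful, INSIG proteins hold these factors and their escort SCAP in the endoplasmic reticulum, and when sterols run low the factors are released. Granulosa cells draw on cholesterol as the precursor of steroid hormones.

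The synthesis machinery was expressed in every clone. Of the 36 genes, 34 reached at least 1 TPM in all 6 libraries and 26 at least 10 TPM. NPC2, a lysosomal protein that binds cholesterol, was the most abundant at a median of 1082 TPM, followed by ACLY at 172 TPM and FDPS at 132 TPM. ABCG1, a sterol exporter, had 0 counts in all 6 libraries, which allows up to 0.0849 CPM in the shallowest of them, and was not tested. ABCA1, the exporter that loads cholesterol onto lipoproteins, lay between 0.02 and 1.03 TPM. Summed over the 18 sterol synthesis enzymes, the level was 666 and 532 TPM in 3.11 and 44b, against 543 and 533 TPM in 44a and 4.72, and 3.11 stood above the other 3 single clones. The 6 genes grouped with the SREBP system, MYLIP among them, summed to 160 and 81.4 TPM in 3.11 and 44b, against 101 and 92.4 TPM in 44a and 4.72. The 5 fatty acid genes summed to 327 and 258 TPM in 3.11 and 44b, against 279 and 301 TPM in 44a and 4.72, so that for both sums 3.11 was highest and 44b lowest.

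**Figure D1:**
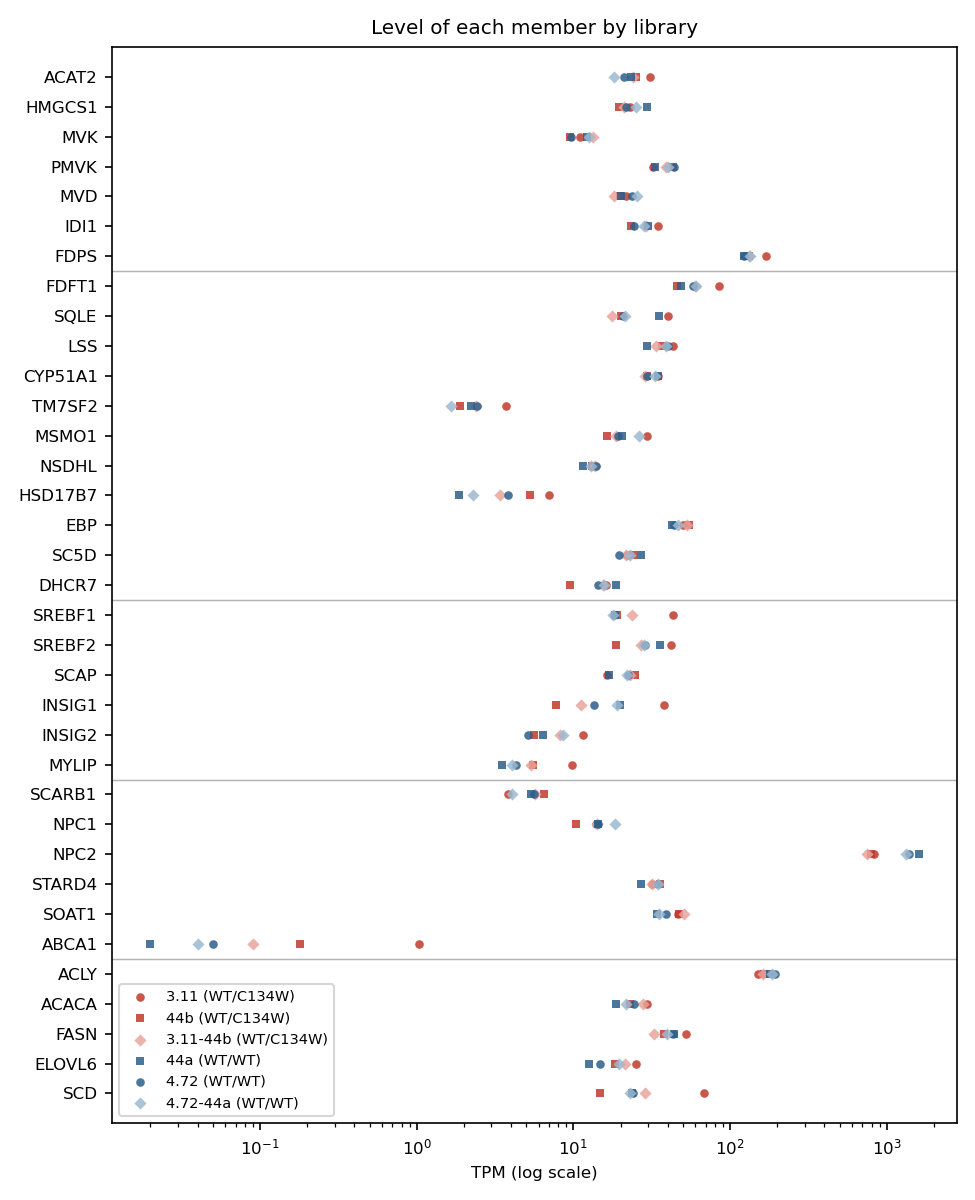
TPM on a log scale of the genes in the 6 libraries, with WT/C134W libraries in red and WT/WT libraries in blue, and lines separating the roles from the mevalonate enzymes at the top to fatty acid synthesis at the bottom. NPC2, with a median of 1082 TPM, stands highest and apart by genotype, while clone 3.11 is the highest point for SCD, INSIG1 and SREBF1.

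Between genotypes, none of these genes passed edgeR's quasi-likelihood test. Of 35 genes with enough counts to be tested, 0 had a Benjamini-Hochberg adjusted p under 0.05, against 0.0% of all 16416 genes tested. At an unadjusted p under 0.05 there were 2 of the 35, or 5.71%, against 7.57% of all genes: NPC2, lower in WT/C134W (background 4.7%), and ELOVL6, higher in WT/C134W (background 2.88%). DESeq2 called 1 of the 35, NPC2, beside 283 of all 16416 genes. The log2 fold change of WT/C134W over WT/WT was above 0 for 14 of the 35, against 50.6% of all genes, with a median of -0.12 against 0.0054 for all genes. Scaling by library totals alone moved the median of all genes to 0.23 and that of the 35 genes to 0.10, with 27 above 0. For 23 of the 35 the fold change was smaller than its own SE. In CPM, the single clones did not overlap between genotypes for 5 genes higher in WT/C134W (14.3%, against 19.6% of all genes). The same held for 7 lower (20.0%, against 19.8%), and these shares were below or near those of all genes.

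**Figure D2:**
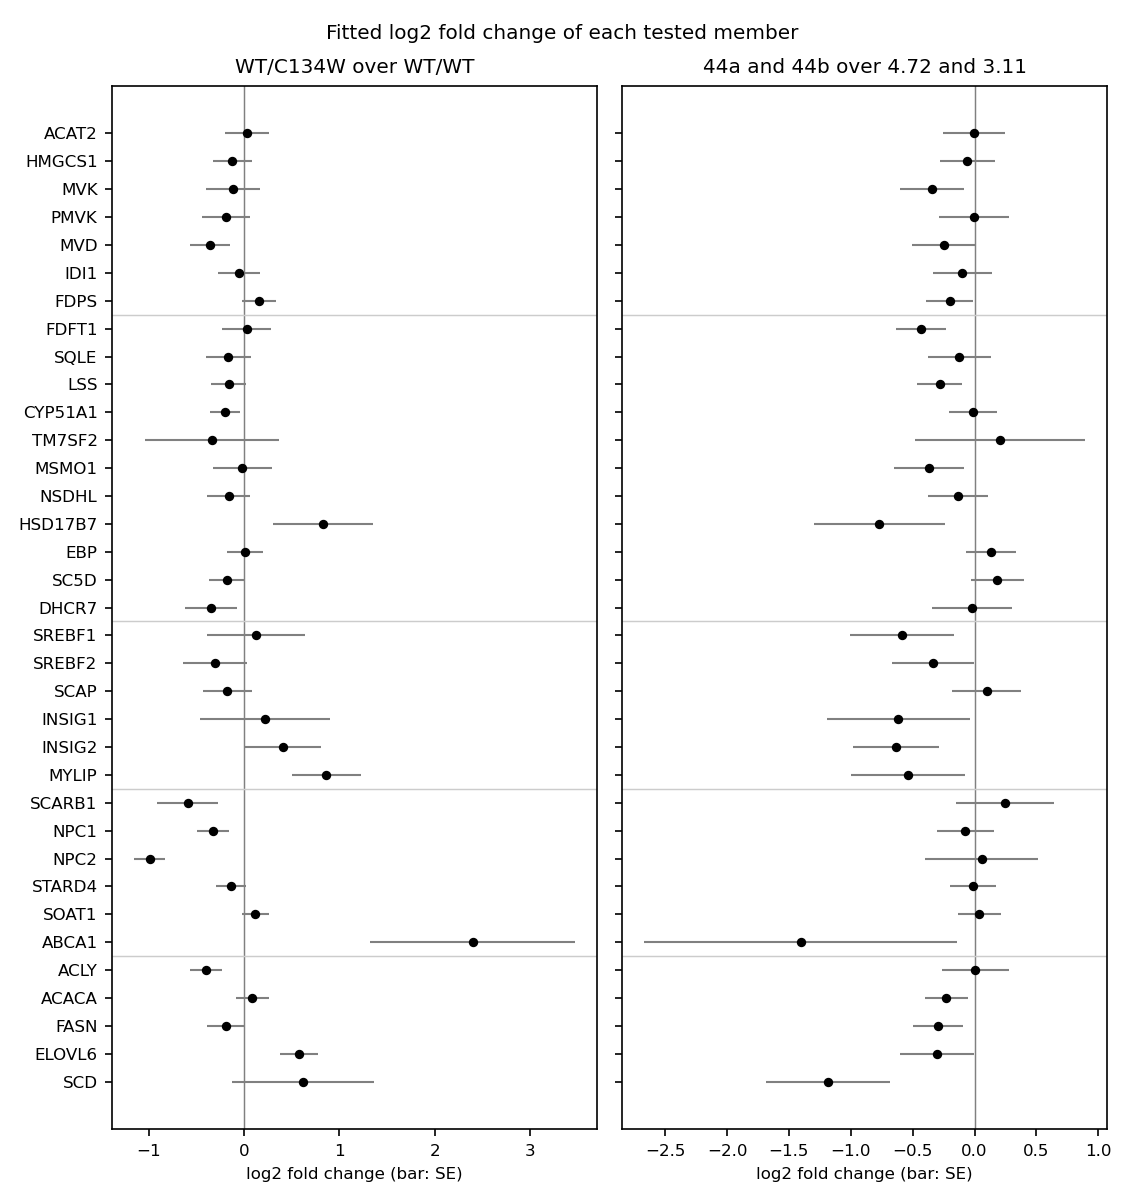
Fitted log2 fold change with its SE for the 35 tested genes, left for WT/C134W over WT/WT and right for 44a and 44b over 4.72 and 3.11, in the order of their roles. On the left NPC2 lies at -0.99 and ELOVL6 at 0.58, and on the right SCD lies at -1.19.

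The mevalonate and isoprenoid enzymes had log2 fold changes between -0.35 and 0.16, and 6 of the 7 were smaller than their SE. MVD, the mevalonate diphosphate decarboxylase, had 18.0 and 15.5 CPM in 3.11 and 44b, with 13.4 CPM in 3.11-44b, against 19.4 and 23.6 CPM in 44a and 4.72, with 24.2 CPM in 4.72-44a. It was the 1 enzyme of this role whose single clones did not overlap between genotypes in CPM. Its log2 fold change was -0.35 ± 0.21 (SE; adjusted p = 0.763), which was -0.22 without 4.72. In TPM MVD overlapped, at 21.57 and 19.94 TPM in 3.11 and 44b, against 20.16 and 23.74 TPM in 44a and 4.72. FDPS, farnesyl diphosphate synthase, had 98.8 and 77.3 CPM in 3.11 and 44b, with 77.9 CPM in 3.11-44b, against 78.0 and 80.0 CPM in 44a and 4.72, with 85.9 CPM in 4.72-44a. Clone 3.11 stood above the rest for FDPS, and the other 5 libraries lay close together. PMVK, the second kinase acting on mevalonate, had 23.0 and 32.7 CPM in 3.11 and 44b, with 28.7 CPM in 3.11-44b, against 26.7 and 36.9 CPM in 44a and 4.72, with 32.6 CPM in 4.72-44a. Its lower clone was 3.11 in WT/C134W and 44a in WT/WT, so the genotypes overlapped. MVK, the first of those kinases, had 13.7 and 9.67 CPM in 3.11 and 44b, with 13.5 CPM in 3.11-44b, against 11.8 and 13.6 CPM in 44a and 4.72, with 12.1 CPM in 4.72-44a. Clone 44b was lowest for MVK, and MMAB, on the opposite strand, overlaps MVK over 620 bases with a count that was 133% of it. HMGCS1, the HMG-CoA synthase, had 31.4 and 24.8 CPM in 3.11 and 44b, against 32.8 and 28.6 CPM in 44a and 4.72, and IDI1, the isopentenyl diphosphate isomerase, had 44.5 and 32.0 CPM in 3.11 and 44b, against 43.2 and 36.3 CPM in 44a and 4.72. Both were lowest in 44b. ACAT2, the acetoacetyl-CoA thiolase, had 36.9 and 28.0 CPM in 3.11 and 44b, against 36.1 and 27.5 CPM in 44a and 4.72, but TCP1, on the opposite strand, overlaps it over 558 bases with a count that was 757% of it.

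From squalene to cholesterol, 8 of 11 fold changes were smaller than their SE, and the median was -0.16. CYP51A1, the lanosterol demethylase, had 60.3 and 54.5 CPM in 3.11 and 44b, with 50.7 CPM in 3.11-44b, against 68.4 and 63.9 CPM in 44a and 4.72, with 69.1 CPM in 4.72-44a. In CPM its genotypes did not overlap, and its log2 fold change was -0.20 ± 0.15 (SE; adjusted p = 0.842), which was -0.13 without 44b. In TPM they overlapped, at 34.66 and 29.67 TPM in 3.11 and 44b, against 34.44 and 29.39 TPM in 44a and 4.72. DHCR7, the final reductase of the pathway, had 22.4 and 15.0 CPM in 3.11 and 44b, with 19.6 CPM in 3.11-44b, against 27.1 and 20.5 CPM in 44a and 4.72, with 18.6 CPM in 4.72-44a. Here the genotypes overlapped and 44b was lowest, with a log2 fold change of -0.34 ± 0.27 (SE; adjusted p = 0.854), which ran from -0.66 without 3.11 to -0.088 without 44b. HSD17B7, a keto reductase of the demethylation steps, had 6.54 and 4.06 CPM in 3.11 and 44b, with 3.64 CPM in 3.11-44b, against 2.08 and 3.93 CPM in 44a and 4.72, with 2.59 CPM in 4.72-44a. Clones 44b and 4.72 were nearly equal, the log2 fold change was 0.83 ± 0.52 (SE; adjusted p = 0.778), which ran from 0.43 without 44a to 1.35 without 4.72, and its expected counts were whole in 2 of 6 libraries. FDFT1, squalene synthase, had 74.9 and 46.4 CPM in 3.11 and 44b, with 51.7 CPM in 3.11-44b, against 55.8 and 63.4 CPM in 44a and 4.72, with 58.8 CPM in 4.72-44a. LSS, lanosterol synthase, had 89.0 and 79.4 CPM in 3.11 and 44b, with 75.6 CPM in 3.11-44b, against 81.6 and 107 CPM in 44a and 4.72, with 87.7 CPM in 4.72-44a. Clone 3.11 was highest for FDFT1 and 4.72 was highest for LSS. SQLE, the squalene epoxidase, had 48.6 and 33.1 CPM in 3.11 and 44b, against 49.8 and 41.9 CPM in 44a and 4.72, with 44b lowest. SC5D, a sterol desaturase, had 26.3 and 26.5 CPM in 3.11 and 44b, against 33.4 and 26.5 CPM in 44a and 4.72, with 44a above the other single clones. NSDHL, a dehydrogenase of the demethylation steps, had 13.3 and 13.6 CPM in 3.11 and 44b, against 13.6 and 16.6 CPM in 44a and 4.72, and EBP, the sterol isomerase, had 22.4 and 27.8 CPM in 3.11 and 44b, against 24.5 and 25.4 CPM in 44a and 4.72. Neither differed between genotypes by more than its SE. TM7SF2, a sterol reductase, was the least expressed of the group at 1.65 to 3.74 TPM.

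In the group of the SREBP system, which here includes MYLIP, 4 of 6 fold changes were smaller than their SE, and the clones of WT/C134W stood far apart. SREBF2 had 108 and 54.8 CPM in 3.11 and 44b, with 72.0 CPM in 3.11-44b, against 106 and 95.5 CPM in 44a and 4.72, with 90.9 CPM in 4.72-44a. Its log2 fold change was -0.30 ± 0.33 (SE; adjusted p = 0.906), or -0.88 without 3.11 and 0.10 without 44b, with 44b below the other 3 single clones. SREBF1 had 56.2 and 19.7 CPM in 3.11 and 44b, with 27.3 CPM in 3.11-44b, against 38.4 and 31.4 CPM in 44a and 4.72, with 24.0 CPM in 4.72-44a. In CPM clone 3.11 was highest and 44b lowest. In TPM 44b was not lowest, at 42.99 and 18.95 TPM in 3.11 and 44b, against 18.49 and 18.25 TPM in 44a and 4.72. RAI1, on the opposite strand, overlaps SREBF1 over 1055 bases with a count that was 157% of it. INSIG1, which holds the SREBPs back and is itself one of their targets, had 43.7 and 11.7 CPM in 3.11 and 44b, with 18.0 CPM in 3.11-44b, against 28.95 and 18.7 CPM in 44a and 4.72, with 26.3 CPM in 4.72-44a. Again 3.11 was highest and 44b lowest. INSIG2, its paralogue, had 14.7 and 7.33 CPM in 3.11 and 44b, with 10.2 CPM in 3.11-44b, against 7.78 and 8.85 CPM in 44a and 4.72, with 10.7 CPM in 4.72-44a. Only 3.11 stood clear of the other single clones for INSIG2, and the log2 fold change was 0.41 ± 0.40 (SE; adjusted p = 0.879), which was -0.18 without 3.11. SCAP, the escort, had 35.8 and 55.1 CPM in 3.11 and 44b, against 44.9 and 58.0 CPM in 44a and 4.72, with 3.11 lowest. MYLIP, a ubiquitin ligase that lowers lipoprotein receptor protein, had 12.9 and 7.995 CPM in 3.11 and 44b, with 7.34 CPM in 3.11-44b, against 5.19 and 6.31 CPM in 44a and 4.72, with 6.24 CPM in 4.72-44a. All 3 WT/C134W libraries lay above all 3 WT/WT libraries, and the log2 fold change was 0.86 ± 0.36 (SE; adjusted p = 0.674), which was 0.48 without 3.11.

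Across the set, 3.11 exceeded 44b for 25 of 35 genes, against 48.0% of all genes, with a median log2 ratio of 0.35 on log2(CPM + 0.5) against -0.019 for all genes. At least 1.5-fold higher in 3.11 were 10 of 35, or 28.6%, against 12.9% of all genes, and 1 gene, SCAP, was as far lower (2.86%, against 14.0%). These 10 were SCD, INSIG1, SREBF1, ABCA1, SREBF2, INSIG2, MSMO1, FDFT1, MYLIP and HSD17B7. They include 5 of the 6 genes grouped here with the SREBP system, a group that counts MYLIP, a ligase acting on lipoprotein receptors. Between the WT/WT clones, 44a exceeded 4.72 for 14 of 35 genes, against 46.6% of all genes, with a median of -0.053 against -0.027 for all genes. INSIG1 was the 1 gene at least 1.5-fold higher in 44a (2.86%, against 11.0%), and HSD17B7 the 1 gene as far lower (2.86%, against 12.4%). Each of these ratios compares 1 library with 1 library and has no replicate check, and the contrast of 3.11 with 44b was singled out after its values were seen. Among the further pathway genes, 3.11 exceeded 44b for 11 of 31 further sterol genes, with a median of -0.045, and for 20 of 41 further fatty acid genes, with a median of -0.022. At least 1.5-fold higher in 3.11 were 1 of the 31 and 8 of the 41 (19.5%), and as far lower were 0 and 4. The summed mitotic genes stood at 2020 CPM in 3.11 and 1182 CPM in 44b. The summed granulosa cell markers stood at 741 CPM in 3.11 and 1731 CPM in 44b, mostly KRT18 at 317 CPM in 3.11 and 1172 CPM in 44b. FST had 50.9 CPM in 3.11 and 116 CPM in 44b, and GJA1 had 236 and 228 CPM in the same clones. The part of these genes in the pattern was not tested.

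**Figure D3:**
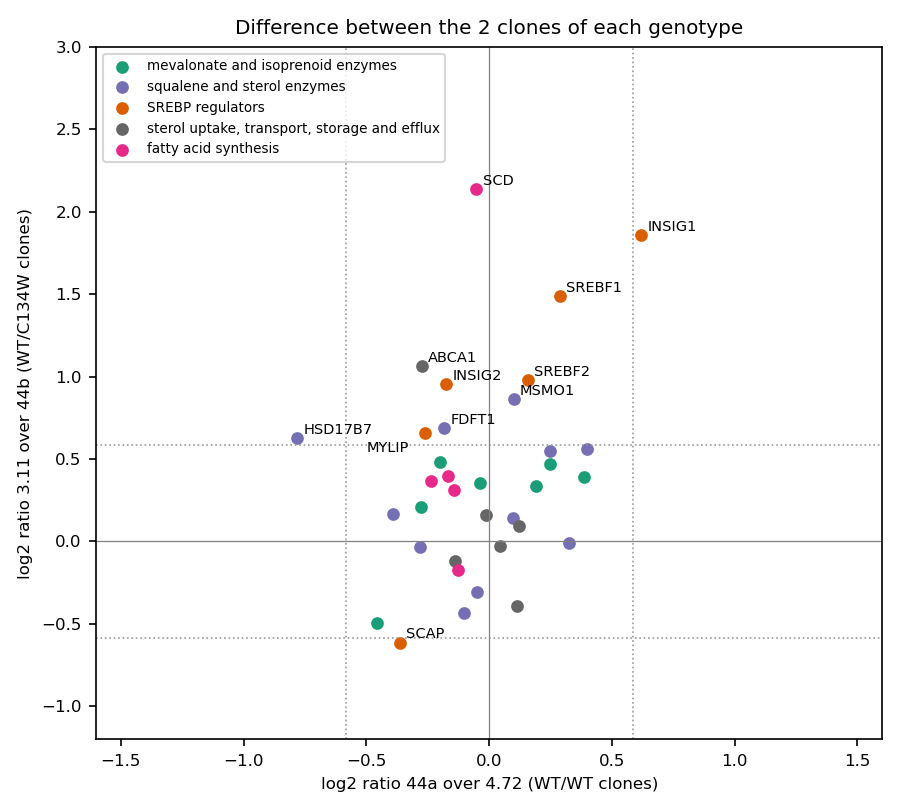
Log2 ratio of 3.11 over 44b (WT/C134W clones) and of 44a over 4.72 (WT/WT clones) for the 35 tested genes on log2(CPM + 0.5), coloured by role, with dotted lines at 1.5-fold. SCD at 2.14, INSIG1 at 1.86 and SREBF1 at 1.49 have the highest ratios of 3.11 over 44b.

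SCD, the desaturase that makes oleate and palmitoleate, showed the widest gap. It had 228 CPM in 3.11 and 51.3 CPM in 44b, a ratio of 4.44, while 44a and 4.72 had 89.7 and 93.0 CPM. The library 3.11-44b held 99.2 CPM and 4.72-44a held 86.6 CPM. The ratio of 3.11 over 44b was 3.74 for INSIG1, 2.85 for SREBF1 and 1.98 for SREBF2. MSMO1, a methyl sterol oxidase named after its values were seen, had 36.8 and 20.0 CPM in 3.11 and 44b, with 25.4 CPM in 3.11-44b, against 29.9 and 27.8 CPM in 44a and 4.72, with 34.0 CPM in 4.72-44a. For SCD, INSIG1, SREBF1, SREBF2, MSMO1, FDFT1 and INSIG2 the 3.11-44b library lay between the clones it names. For ABCA1, MYLIP and HSD17B7, also at least 1.5-fold higher in 3.11 than in 44b, it lay below both. The 4.72-44a library lay outside its clones for SCD, SREBF1, SREBF2, MSMO1 and INSIG2. Over the set, the 3.11-44b library lay between its clones for 21 of the 35 genes, against 49.1% of all genes. The 4.72-44a library did so for 15 of the 35, against 49.6%. Setting 44b over 44a and 3.11 over 4.72 side by side in CPM, SCD, INSIG1 and SREBF1 moved at least 1.5-fold in opposite directions. These were 3 of the 35 genes, against 3.88% of all genes. In TPM, SREBF1 was nearly level in 44b and 44a, at 18.95 and 18.49 TPM.

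**Figure D4:**
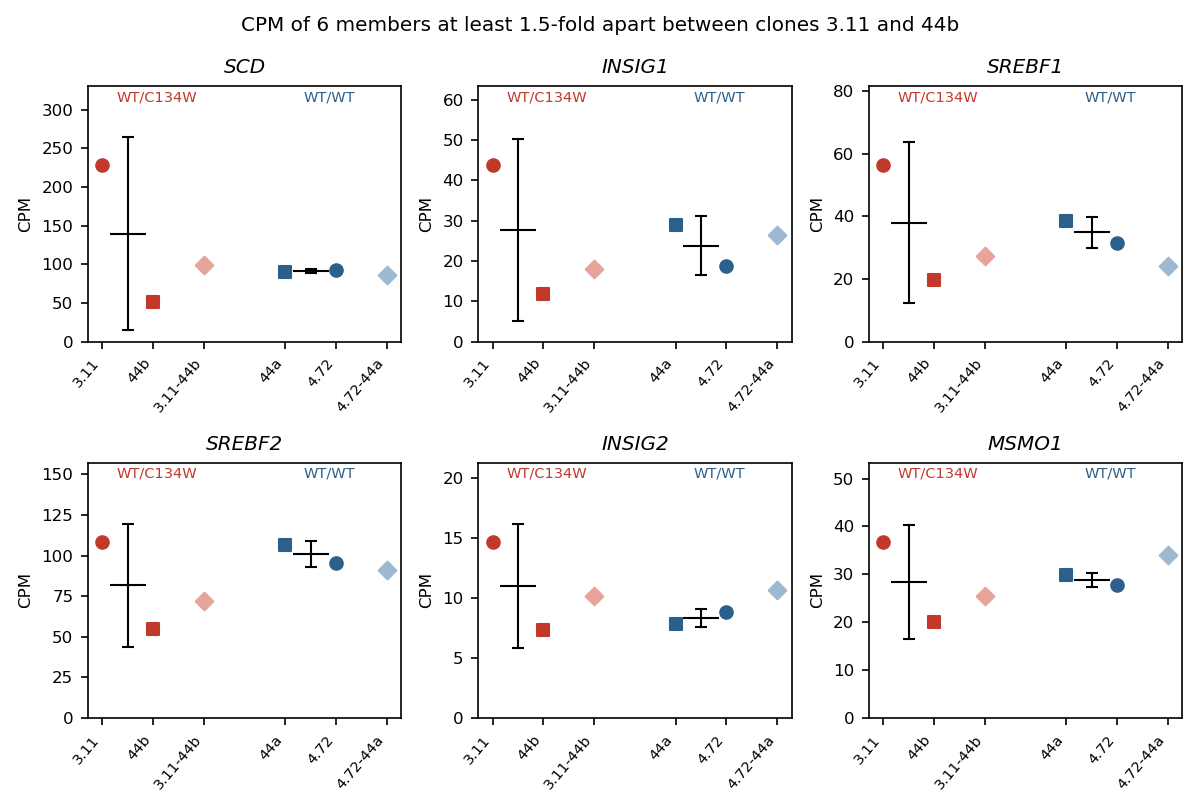
CPM of 6 genes with wide clone differences in each library, WT/C134W in red and WT/WT in blue, with the horizontal bar and whiskers giving the mean ± SD of the 2 single clones of a genotype and diamonds the libraries with joined names. For SCD the clones 3.11 and 44b stand at 228 and 51.3 CPM, on either side of the WT/WT clones.

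INSIG1, SCD, MSMO1 and SREBF2 were at least 1.5-fold higher in 3.11 than in 44b. SREBF2 was nearly level in 3.11 and 44a, at 108 and 106 CPM. Because SREBPs act from promoters, commonly beside the factor NF-Y, promoter sequences of SREBF2, INSIG1, SCD, MSMO1 and NPC2 are shown. They are RefSeq sequences of GRCh38.p14 on the coding strand, 5′ to 3′. Capitals mark matches to the sterol element core TCACNCCAC, the NF-Y box CCAAT or the E-box CACGTG on either strand. The NPC2 sequence is from the first of its 2 entries, and the other held no match in its 250 bases before the start.
SREBF2, chr22:41832960-41833015, plus strand: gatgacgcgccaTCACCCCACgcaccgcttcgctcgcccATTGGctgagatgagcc
INSIG1, chr7:155297698-155297838, plus strand: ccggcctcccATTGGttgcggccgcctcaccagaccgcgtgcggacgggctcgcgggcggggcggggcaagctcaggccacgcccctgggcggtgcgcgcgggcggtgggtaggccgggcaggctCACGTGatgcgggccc
SCD, chr10:100346993-100347063, plus strand: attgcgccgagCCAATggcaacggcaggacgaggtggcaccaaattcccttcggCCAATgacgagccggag
MSMO1, chr4:165327474-165327649, plus strand: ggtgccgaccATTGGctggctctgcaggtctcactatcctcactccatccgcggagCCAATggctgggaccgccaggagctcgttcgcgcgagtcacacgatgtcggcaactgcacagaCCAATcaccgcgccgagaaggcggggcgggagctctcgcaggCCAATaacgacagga
NPC2, chr14:74493612-74493667, minus strand: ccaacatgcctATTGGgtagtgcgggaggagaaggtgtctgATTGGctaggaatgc

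Of the 36 genes, 30 had an entry in the RefSeq promoter table. Within the 250 bases before the start, on either strand, 22 of the 30 held CCAAT, or 73.3%, against 37.0% of all 27305 genes in the table. The sterol element core was found in 1 of the 30, SREBF2, or 3.33%, against 1.09% of all genes. The E-box was found in 4 of the 30, INSIG1, SC5D, SCAP and ABCA1, or 13.3%, against 7.73%. A match is a run of letters and not a measured site, and genes with several entries were counted if any entry matched. Only exact matches were sought, so variant sequences and sites outside these bases were not looked for.

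Among the genes of sterol uptake, transport and storage, NPC2 had the smallest p of the set between genotypes. NPC2 (chromosome 14, 74476192 to 74494177, minus strand, GRCh38) had 293 and 275 CPM in 3.11 and 44b, with 278 CPM in 3.11-44b, against 588 and 540 CPM in 44a and 4.72, with 531 CPM in 4.72-44a. All 3 WT/C134W libraries lay below all 3 WT/WT libraries. The means were 284 ± 12.9 CPM in WT/C134W and 564 ± 33.7 CPM in WT/WT (SD, n = 2 each), a log2 fold change of -0.99 ± 0.16 (SE). This did not pass over all genes in edgeR's test (adjusted p = 0.48), while DESeq2 gave an adjusted p of 8.82e-07 on the same 4 libraries. Over all alternatives the adjusted p ran from 8.82e-07 to 0.999. In length-scaled levels NPC2 stood at 827 and 794 TPM in 3.11 and 44b, against 1597 and 1385 TPM in 44a and 4.72. Among the fibroblast markers, COL1A1 ran in the same direction, at 4493 and 3909 TPM in 3.11 and 44b, against 8632 and 7142 TPM in 44a and 4.72, as did COL1A2 and PDGFRB. PDGFRA, DCN, LUM and THY1 overlapped between genotypes, with THY1 at 541 and 457 TPM in 3.11 and 44b, against 450 and 685 TPM in 44a and 4.72. The part of these genes in the NPC2 difference was not tested. In bulk RNA, fewer cells of a type and less RNA per cell cannot be told apart.

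NPC1, the membrane protein that receives cholesterol from NPC2, had 31.2 and 27.9 CPM in 3.11 and 44b, with 30.0 CPM in 3.11-44b, against 36.9 and 37.2 CPM in 44a and 4.72, with 37.4 CPM in 4.72-44a. Its genotypes did not overlap, the log2 fold change was -0.32 ± 0.17 (SE; adjusted p = 0.727), and RMC1, on the opposite strand, overlaps it over 25624 bases. SCARB1, a receptor for high-density lipoprotein, had 5.34 and 7.18 CPM in 3.11 and 44b, with 7.47 CPM in 3.11-44b, against 9.84 and 9.07 CPM in 44a and 4.72, with 7.71 CPM in 4.72-44a. In CPM all 3 WT/C134W libraries lay below all 3 WT/WT libraries, with a log2 fold change of -0.59 ± 0.32 (SE; adjusted p = 0.741). In TPM the genotypes of SCARB1 overlapped, at 3.83 and 6.48 TPM in 3.11 and 44b, against 5.36 and 5.64 TPM in 44a and 4.72. ABCA1 had 1.97 and 0.685 CPM in 3.11 and 44b, with 0.625 CPM in 3.11-44b, against 0.181 and 0.323 CPM in 44a and 4.72, with 0.308 CPM in 4.72-44a. Clone 44a held 8 counts and 3.11 held 82 counts, so the log2 fold change of 2.40 ± 1.07 (SE; adjusted p = 0.690), which was 1.44 without 3.11, rests on few reads. STARD4, a cytosolic sterol carrier, had 47.4 and 51.6 CPM in 3.11 and 44b, against 51.9 and 57.3 CPM in 44a and 4.72. SOAT1, which esterifies cholesterol for storage, had 74.6 and 76.0 CPM in 3.11 and 44b, against 70.6 and 68.4 CPM in 44a and 4.72. Neither the STARD4 nor the SOAT1 difference exceeded its SE.

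**Figure D5:**
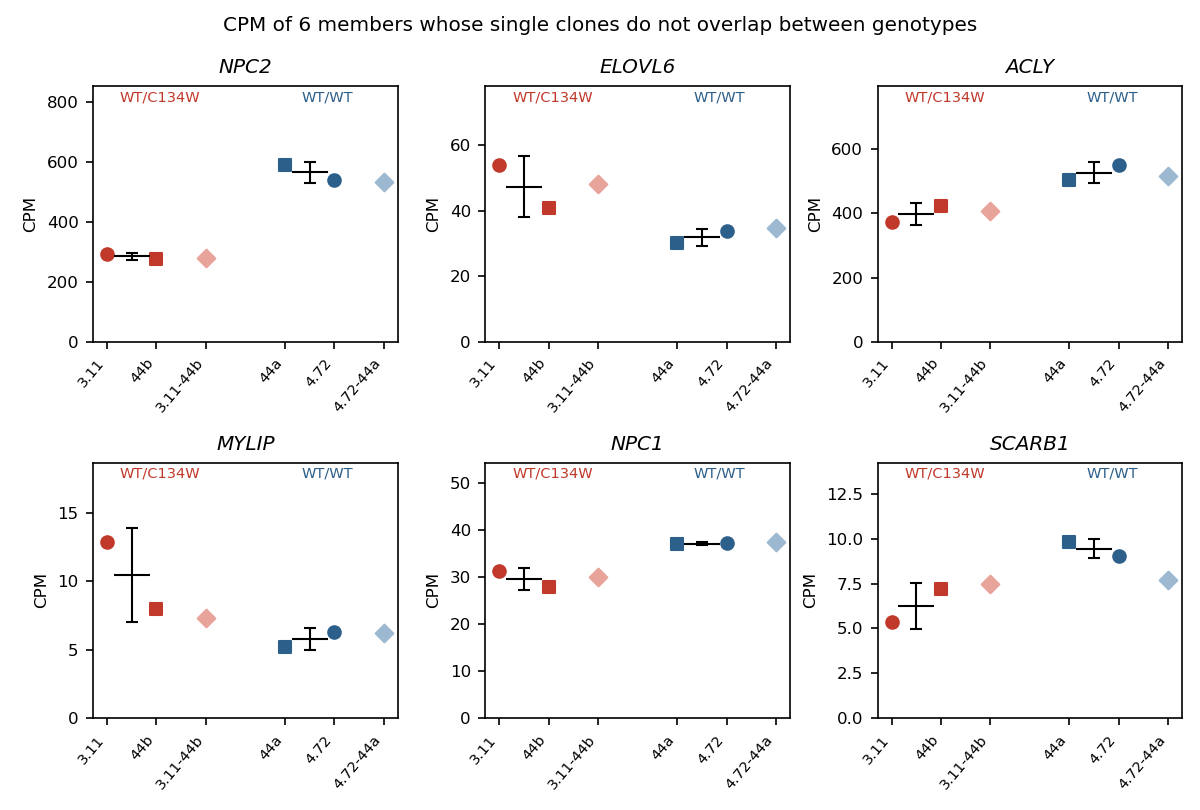
CPM of NPC2, ELOVL6, ACLY, MYLIP, NPC1 and SCARB1 in each library, WT/C134W in red and WT/WT in blue, with the horizontal bar and whiskers giving the mean ± SD of the 2 single clones and diamonds the libraries with joined names. NPC2 lies at 293 and 275 CPM in the WT/C134W clones and at 588 and 540 CPM in the WT/WT clones, and in no panel do the single clones overlap.

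The fatty acid genes did not differ in 1 direction. ACLY, which supplies cytosolic acetyl-CoA to both pathways, had 374 and 422 CPM in 3.11 and 44b, with 406 CPM in 3.11-44b, against 504 and 550 CPM in 44a and 4.72, with 517 CPM in 4.72-44a. The genotypes did not overlap, and the log2 fold change was -0.40 ± 0.17 (SE; adjusted p = 0.674), or -0.17 when scaled by library totals alone. ELOVL6, the elongase of palmitate, had 53.8 and 40.7 CPM in 3.11 and 44b, with 48.2 CPM in 3.11-44b, against 30.0 and 33.7 CPM in 44a and 4.72, with 34.7 CPM in 4.72-44a. Again the genotypes did not overlap, with a log2 fold change of 0.58 ± 0.20 (SE; adjusted p = 0.647), which was 0.36 without 3.11. FASN, the fatty acid synthase, had 209 and 162 CPM in 3.11 and 44b, with 172 CPM in 3.11-44b, against 195 and 230 CPM in 44a and 4.72, with 197 CPM in 4.72-44a. ACACA, the carboxylase that commits acetyl-CoA to fatty acids, had 104 and 83.9 CPM in 3.11 and 44b, against 84.4 and 93.3 CPM in 44a and 4.72. Both overlapped between genotypes, at 0.086 ± 0.17 for ACACA and -0.19 ± 0.19 for FASN (SE). The SCD log2 fold change of 0.62 ± 0.75 (SE; adjusted p = 0.916) was -0.83 without 3.11 and 1.32 without 44b.

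When clones 44a and 44b were compared with 4.72 and 3.11, no gene of the set passed edgeR's quasi-likelihood test. Of 35 tested, 0 had an adjusted p under 0.05, against 0.00609% of all genes (1 gene). At an unadjusted p under 0.05 there were 0, against 4.47% of all genes (2.42% higher and 2.05% lower). DESeq2 called 0 of the 35, beside 207 of all genes. The log2 fold change was above 0 for 8 of 35, against 48.5% of all genes, with a median of -0.13 against -0.011 for all genes. The clone pairs did not overlap for 8 genes lower in 44a and 44b, or 22.9%, against 15.4% of all genes, and for 1 that was higher, SC5D (2.86%, against 15.2%). These 8, taken in CPM, were MVK, FDPS, FDFT1, LSS, INSIG2, ACACA, FASN and SCD. In TPM, MVK, FDPS, INSIG2 and FASN overlapped between the pairs.

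SCD had 89.7 and 51.3 CPM in 44a and 44b, against 93.0 and 228 CPM in 4.72 and 3.11, a log2 fold change of -1.19 ± 0.50 (SE), which was -0.39 without 3.11. FDFT1 had 55.8 and 46.4 CPM in 44a and 44b, against 63.4 and 74.9 CPM in 4.72 and 3.11, at -0.43 ± 0.20 (SE). INSIG2 had 7.78 and 7.33 CPM in 44a and 44b, against 8.85 and 14.7 CPM in 4.72 and 3.11, at -0.63 ± 0.35 (SE), which was -0.22 without 3.11. For these 3 genes clone 3.11 was the highest of the single clones, and the same library enters their values in both comparisons. LSS stood at -0.28 ± 0.18, FASN at -0.29 ± 0.20, MVK at -0.34 ± 0.26 and FDPS at -0.20 ± 0.19 (SE), each lower in 44a and 44b without overlap in CPM. With 1 clone left out these moved to -0.14 for LSS without 4.72, -0.17 for FASN and -0.21 for MVK without 44b, and -0.038 for FDPS without 3.11. SREBF1, at -0.59 ± 0.42, ABCA1, at -1.41 ± 1.264, and SCARB1, at 0.25 ± 0.39 (SE), overlapped between the pairs. Without 3.11 they were at -0.10 for SREBF1, 0.42 for ABCA1 and -0.088 for SCARB1.

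Of 35 further sterol genes, 31 were tested between genotypes and 0 passed in edgeR's test, while at an unadjusted p under 0.05 there were 1 higher and 3 lower in WT/C134W, against 2.88% and 4.7% of all genes, with a median of -0.059 against 0.0054. The single clones did not overlap for 5 higher (16.1%, against 19.6% of all genes) and 10 lower (32.3%, against 19.8%). NCEH1, a hydrolase of cholesteryl esters, had 109 and 101 CPM in 3.11 and 44b, against 75.8 and 64.6 CPM in 44a and 4.72, a log2 fold change of 0.58 ± 0.16 (SE; adjusted p = 0.593). LRP1, a lipoprotein receptor, had 1105 and 770 CPM in 3.11 and 44b, against 1513 and 1473 CPM in 44a and 4.72, at -0.67 ± 0.23 (SE), and VLDLR, of the same family, had 18.8 and 16.5 CPM in 3.11 and 44b, against 35.4 and 23.7 CPM in 44a and 4.72, at -0.74 ± 0.25 (SE). NCEH1, LRP1 and VLDLR are among these genes without overlap. Of 46 further fatty acid and triglyceride genes, 41 were tested and 0 passed, with 0 higher and 4 lower at an unadjusted p under 0.05, against 2.88% and 4.7% of all genes, and a median of -0.032. Here 5 were higher (12.2%, against 19.6%) and 8 lower (19.5%, against 19.8%) without overlap. FADS3, of the fatty acid desaturase family, had 136 and 122 CPM in 3.11 and 44b, against 189 and 221 CPM in 44a and 4.72, a log2 fold change of -0.66 ± 0.16 (SE; adjusted p = 0.593). PNPLA2, the lipase that starts triglyceride breakdown, had 78.4 and 92.5 CPM in 3.11 and 44b, against 127 and 133 CPM in 44a and 4.72, at -0.60 ± 0.16 (SE), and ACSL1, an acyl-CoA synthetase, had 11.5 and 11.7 CPM in 3.11 and 44b, against 16.7 and 19.7 CPM in 44a and 4.72, at -0.65 ± 0.22 (SE). These 3 are among the 8.

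Between the clone pairs, 0 of the 31 sterol genes and 1 of the 41 fatty acid genes had an unadjusted p under 0.05, against 4.47% of all genes, and 0 passed after adjustment. The 1 gene was PLIN2, a lipid droplet coat protein, with 0.248 and 1.02 CPM in 44a and 44b, against 2.76 and 2.94 CPM in 4.72 and 3.11. LPIN3, a phosphatidate phosphatase, stood at -0.53 ± 0.24 and CPT1A, the carnitine transferase of mitochondrial fatty acid import, at 0.62 ± 0.28 (SE). The sterol genes of smallest p were ERLIN1, at -0.39 ± 0.23, GRAMD1B, at -0.49 ± 0.30, and TMEM97, at 0.28 ± 0.20 (SE). The median was -0.0073 over the sterol list and -0.039 over the fatty acid list, against -0.011 for all genes.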

How the data were processed

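RNA-seq gene tables of 6 KGN libraries were used, grouped by the genotype label. The expected counts, estimated reads per gene written by RSEM, were deposited unscaled, per the file headers. TPM and FPKM were deposited as scaled by gene length, per the file headers, and FPKM was not used. The submitters' processing notes list RSEM 1.3.1, STAR 2.7.6a, DESeq2 1.26.0, Picard 2.8.1 and R 3.6.3 with no roles, and the mouse build GRCm38, although the gene IDs are human. Neither the human build nor the strand setting is given in the sources used here, so genes with an antisense partner are uncertain. Expected counts were whole, within 0.005, in all 6 libraries for 23 of the 36 genes; the others carry fractional estimates.

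Symbols and coordinates (GRCh38) came from GENCODE 29, which holds 58216 of the 58336 IDs. Expected counts were rounded and filtered with filterByExpr, then fitted in edgeR 4.0.16 under R 4.3.3 (TMM, robust glmQLFit, glmQLFTest), with Benjamini-Hochberg adjustment over 16416 genes and a threshold of 0.05. The SE was obtained from the log2 fold change and the F statistic of the same fit, which shares spread across genes. CPM is TMM-scaled over 6 libraries. Limits from 3 counts use library totals without TMM and cover counting error only. The fit was tested on simulated counts with known changes, at spreads set in advance. Its power at the spread of these clones was not measured. The 36 genes, the lists and the tests were chosen with earlier results of these data known. In each role, the 3 genes of smallest p between genotypes and the 2 of smallest p between clone pairs are given in full, as are up to 3 genes of each further list; the full values of INSIG1 and MSMO1 were added after they were seen. The alternatives were all 6 libraries, DESeq2 1.42.0, size factors by median ratio, totals as sole scaling, omission of the low-count filter, each clone left out, and a block or genotype term.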

Additional observations from a re-analysis of the deposited data

Results flagged for a closer look

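SCD, INSIG1 and SREBF1 moved in opposite directions in the 2 clone pairs, at least 1.5-fold each way on log2(CPM + 0.5), and 3.88% of all genes tested did so. For SCD, 44b over 44a was -0.80 and 3.11 over 4.72 was 1.29, a difference of -2.09. For INSIG1 the values were -1.27 and 1.21, a difference of -2.48. For SREBF1 they were -0.94 and 0.83, a difference of -1.78. In TPM SREBF1 stood at 18.95 in 44b and 18.49 in 44a, so its opposite movement was seen in CPM alone. Each value compares 1 library with 1 library, and the differences were not tested.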

How the results depend on the processing

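Between genotypes 0 genes were called in edgeR's test, and 511 with all 6 libraries, 283 by DESeq2, 664 without the low-count filter and 5 with the replicate block (44a with 44b, 4.72 with 3.11). Of the set, 0 were called, and 1, NPC2, with all 6 libraries, by DESeq2 and without the filter. NPC2 had an adjusted p of 0.299 to 0.999 in the other settings; the fit of all 6 libraries takes the joined ones as separate clones. Of the further pathway genes 0 were called, and 5 with all 6 libraries, 1 (FADS3) by DESeq2 and 2 (HACD1 and HACD2) without the filter. Between clone pairs 1 gene was called, and 207 by DESeq2, 0 with median-ratio size factors, 33 with library totals alone, 448 without the filter, 38 with genotype as a second term (the replicate block fit), and 0 to 4 with 1 clone left out. Of the set 0 were called there, and 1, SCD, without the filter. The causes of these differences were not tested. The block joins clones by the stem of their titles and not by the replicate numbers, which follow the order of deposit, and it changed no call of the set.

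Signs turned for genes near 0. With library totals alone the log2 fold change between genotypes was 0.10 for HMGCS1, 0.11 for MVK, 0.043 for PMVK, 0.17 for IDI1, 0.059 for SQLE, 0.069 for LSS, 0.024 for CYP51A1, 0.21 for MSMO1, 0.068 for NSDHL, 0.043 for SC5D, 0.054 for SCAP, 0.088 for STARD4 and 0.036 for FASN. With all 6 libraries it was -0.034 for FDFT1 and -0.0036 for INSIG1, and with the block -0.0074 for FDFT1, -0.052 for SREBF1 and -0.030 for INSIG1. Between clone pairs it was 0.064 for PMVK and 0.013 for CYP51A1 with library totals alone, and 0.024 for PMVK with genotype as a second term.

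With 1 clone left out the genotype values ran from -0.18 to 0.23 for ACAT2, -0.31 to 0.034 for HMGCS1, -0.39 to 0.11 for MVK, -0.47 to 0.055 for PMVK, -0.31 to 0.16 for IDI1, -0.029 to 0.32 for FDPS, -0.36 to 0.33 for FDFT1, -0.47 to 0.083 for SQLE, -0.35 to 0.041 for LSS and -0.53 to 0.35 for MSMO1. They ran from -0.16 to 0.16 for EBP, -0.82 to 0.69 for SREBF1, -0.88 to 0.10 for SREBF2, -0.52 to 0.10 for SCAP, -1.02 to 0.88 for INSIG1, -0.18 to 0.82 for INSIG2, -0.081 to 0.23 for ACACA and -0.83 to 1.32 for SCD. The clone pair values ran from -0.31 to 0.37 for PMVK, -0.19 to 0.14 for CYP51A1, -0.51 to 0.34 for DHCR7, -0.90 to 0.066 for SREBF2, -0.96 to 0.067 for MYLIP, -0.088 to 0.68 for SCARB1, -0.30 to 0.11 for NPC1, -0.60 to 0.56 for NPC2, -2.65 to 0.42 for ABCA1, -0.24 to 0.31 for ACLY and -0.60 to 0.074 for ELOVL6. In these fits the lone clone of a group is assumed to vary like the others.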
